A study of Homo sapiens with 6 samples.

Results

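Mitotic kinesins are motor proteins that move along microtubules, or take them apart, while a cell divides. The 10 examined here, namely KIF11, KIF15, KIFC1, KIF18A, KIF2C, CENPE, KIF4A, KIF23, KIF20A and KIF14, were chosen by name as kinesin genes of the spindle and the dividing cell, out of 34957 gene identifiers in the deposited tables. All 10 were found in the tables and all 10 passed the minimum level for testing in every comparison. The rule names genes and no measured level, though it was drawn up with earlier results of these data known.

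Bulk short-read RNA-seq was done for A549 cells, an established line from a human lung adenocarcinoma, 48 h after transfection of a negative control siRNA (si-ctrl) or of an siRNA against the long noncoding RNA PLANE (si-PLANE.1 or si-PLANE.2). Each group held 2 libraries, which the labels number 1 and 2 in both si-ctrl and si-PLANE.1, while those of si-PLANE.2 carry 3 and 4. The siRNAs were delivered with a lipofection reagent, no other allele or agent separated the groups, and both knockdown groups were compared with the same 2 si-ctrl libraries. The study calls the libraries experimental repeats, but nothing in the labels says that they came from separate cultures, so p-values measure only the spread between these libraries, which may be technical. A single cell line was used, and PLANE itself was not analysed here, so no value below checks its knockdown.

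Spindle microtubules are built and cleared in an ordered way through mitosis, and each kinesin family has its place in that order. Kinesins that slide antiparallel microtubules push the spindle poles apart, motors at chromosome arms and kinetochores bring chromosomes to the spindle equator, and kinesins of the central spindle prepare the cell for cleavage. In proliferating cells such as A549 the mRNAs of these motors accumulate towards G2 and mitosis. Their promoters are known targets of the DREAM and MMB complexes, which bind a short element called CHR (cell cycle genes homology region), and of NF-Y, which binds CCAAT boxes. In a bulk library, fewer cells in G2 or mitosis and less mRNA per cell cannot be told apart.

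The promoter windows of the members, from RefSeq (build GRCh38.p14, 250 bases before to 50 bases after each start), are shown because the members are regulated together in the cell cycle. 3 kinds of letters were searched on both strands. The CHR was searched as TTTGAA and, in a variant form, as TTCGAA. The box bound by NF-Y was searched as CCAAT. The E2F site was searched in its form TTGGCGC and in the further forms TTCCCGC, then TTGCCGC, and last TTCGCGC. CHR letters were found in 7 of 10 members, against 16.35% of 35116 promoters of the same length. CCAAT letters were found in 7 of 10 members, against 34.61% of promoters, and E2F letters in 3 of 10, against 12.97%. These matches are descriptions of letters and not sites of binding. The 100 bases before the start are printed for the 5 members in which CHR letters lie in that stretch, 5′ to 3′ on the strand of the gene, with every match of the searched letters in capitals. A CHR on the other strand reads TTCAAA and a CCAAT box on the other strand reads ATTGG. The stretches lie at chr10:92593030-92593129, plus strand, for KIF11, at chr15:69414249-69414348, plus strand, for KIF23, at chrX:70290004-70290103, plus strand, for KIF4A, at chr3:44761694-44761793, plus strand, for KIF15, and at chr11:28108157-28108256, minus strand, for KIF18A.
KIF11: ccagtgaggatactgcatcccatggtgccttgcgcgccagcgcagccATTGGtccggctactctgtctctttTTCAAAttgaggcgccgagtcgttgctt
KIF23: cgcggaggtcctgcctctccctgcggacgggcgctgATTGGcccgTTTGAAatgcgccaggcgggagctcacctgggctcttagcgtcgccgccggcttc
KIF4A: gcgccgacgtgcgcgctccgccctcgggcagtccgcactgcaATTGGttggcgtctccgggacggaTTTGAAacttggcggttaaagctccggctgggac
KIF15: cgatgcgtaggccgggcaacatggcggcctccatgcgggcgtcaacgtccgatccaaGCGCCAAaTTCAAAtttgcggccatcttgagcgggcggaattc
KIF18A: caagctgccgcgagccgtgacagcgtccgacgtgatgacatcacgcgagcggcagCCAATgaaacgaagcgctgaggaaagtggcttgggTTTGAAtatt
The CHR begins 28 bases before the start in KIF11, 55 in KIF23, 34 in KIF4A, 35 in KIF15 and 10 in KIF18A. In KIF11, KIF23, KIF4A and KIF18A the other capitals are a CCAAT box, beginning 53, 64, 58 and 45 bases before the start, and in KIF15 they are the letters GCGCCAA of an E2F site on the other strand, beginning 43 bases before the start. KIF14 and KIFC1 held their CHR letters just after the start. The letters searched as CHR were not in the windows of KIF20A, KIF2C and CENPE, and none of the 3 motifs was matched in KIF2C and CENPE. Only TTTGAA and TTCGAA were searched as CHR, so a CHR of another spelling would be missed. The windows of KIF20A and CENPE hold the letters TTTAAA, which were not searched. Whether the letters found go with the changes below was not tested.

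Expected counts, which are estimates of the reads from each transcript, summed to between 10572151 and 20778431 per library, the 2 highest totals being those of si-PLANE.2. Of 10 genes that mark A549 cells, 9 or 10 stood at 1 FPKM or more in every library, CDKN2A and CDKN2B, which this line has lost, reached at most 0.44 FPKM, and 2 of 8 markers of leukocytes, fibroblasts and endothelium reached 1 FPKM. After si-PLANE.2, 7 of the 10 A549 markers were called higher and 2 lower, against 31.8% and 32.3% of all 14168 genes. Among them AKR1B10 was 3.51-fold higher and CDH1 and EPCAM were 2.58-fold and 3.27-fold lower. The part of these changes in the kinesin values was not tested. FPKM is a level scaled to library depth and transcript length, so it can be compared between genes. Histone mRNAs without a poly(A) tail set the si-PLANE.2 libraries apart. The median over 9 such genes was 149 and 181 FPKM in control cells and 61.9 and 124 FPKM after si-PLANE.1, but 0.09 and 0.20 FPKM after si-PLANE.2. The study's methods name isolation of poly(A) RNA or removal of rRNA without assigning either to a library. An effect of si-PLANE.2 on the kinesins and a difference in how its libraries were made cannot be told apart.

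The level of the kinesins in the cells was compared first, on gene totals in FPKM. In si-ctrl cells KIF23 was the most abundant member at 51.6 and 46.7 FPKM. KIF20A followed at 36.8 and 42.4 FPKM and KIF11 at 31.7 and 27.1 FPKM. No value of KIF23 overlapped KIF20A, and no value of KIF20A overlapped KIF11.

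KIF2C (21.9 and 21.6 FPKM), KIF18A (19.1 and 21.5 FPKM) and KIF4A (18.3 and 18.5 FPKM) came next. KIF2C and KIF18A were separated by less than the spread between the KIF18A libraries. The lowest 4 were KIFC1 (11.6 and 15.1 FPKM), KIF14 (11.9 and 12.3 FPKM), CENPE (11.2 and 9.55 FPKM) and KIF15 (7.88 and 9.96 FPKM). KIFC1 overlapped KIF14, and CENPE overlapped KIF15. By gene totals KIF23 was again highest after either siRNA. By protein-coding transcripts it overlapped KIF20A after si-PLANE.1 (26.7 and 27.05 against 26.6 and 30.2 FPKM). On totals KIF20A was second after si-PLANE.1, and after si-PLANE.2 KIF20A overlapped KIF2C, while KIF2C and KIF4A both lay above KIF11. Summed over the 10 members, the control libraries held 222 and 225 FPKM, those of si-PLANE.1 held 185 and 193 and those of si-PLANE.2 held 144 and 135, so the sums of the groups did not overlap.

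**Figure D1:**
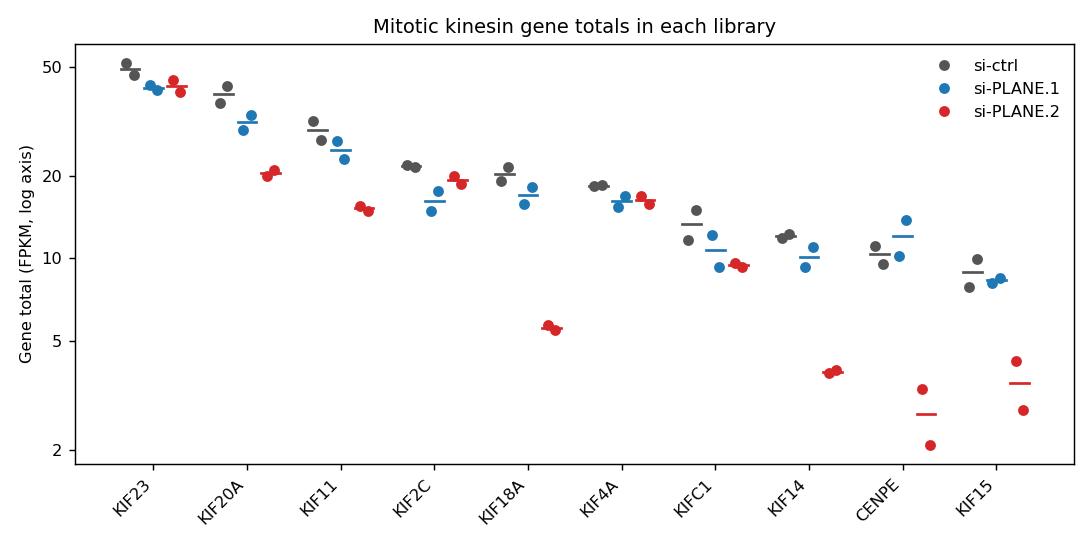
Gene totals of the 10 mitotic kinesins in each library, in FPKM on a log axis. Each point is 1 library, each short bar the mean of the 2 libraries of a group, and members are ordered by their si-ctrl mean. KIF18A, KIF14, CENPE and KIF15 show the widest gap between si-PLANE.2 and the other groups, while KIF23, KIF2C and KIF4A lie close together in all groups.

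Several totals may hold reads of other genes, since counting by strand is not stated. KIF20A (chr5:137514408-137523412, plus strand, hg19) overlaps the ends of BRD8 and CDC23, which stood at 28.5 to 39.6 and 17.2 to 29.9 FPKM. KIF4A (chrX:69509954-69640736, plus strand) overlaps PDZD11 at 34.8 to 59.0 FPKM, and KIF15 (chr3:44803213-44914868, plus strand) holds TMEM42 at 3.43 to 11.3 FPKM. KIF4A also has a near-identical copy, KIF4B, to which reads could be split. KIF4B was listed at 0 to 0.03 FPKM. The part of these overlaps in the values below was not tested.

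The question for each siRNA was whether the motors were lower or higher than in si-ctrl cells. Within a gene, libraries were compared as counts scaled to library depth by TMM (CPM), a value that does not allow for length. Each fold change and its p came from edgeR's quasi-likelihood test on gene counts, with Benjamini-Hochberg adjustment over all genes tested and a call at an adjusted p under 0.05. The smallest p that an exact permutation test of 2 libraries against 2 could give is 0.333, so no such test was used.

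After si-PLANE.1 all 10 members had a log2 fold change of gene counts below 0. None passed the adjusted threshold in DESeq2 or in edgeR's fit of the groups alone. An edgeR fit that also held the library number called 3, as given below. The changes ran from -0.50 for KIF20A to -0.12 for KIF15, with a median of -0.30, beside a median of 0.0018 over all 14535 genes. In edgeR's quasi-likelihood test the adjusted p of the members lay between 0.36 and 0.81, and 0.0344% of all genes, 5 in number, were called in either direction. At an unadjusted p under 0.05, 5 of the 10 were lower (KIF20A, KIF2C, KIF14, KIF11 and KIF23), against 5.77% of all genes. In 8 of 10 members both si-PLANE.1 libraries lay below both si-ctrl libraries, against 21.6% of all genes.

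KIF20A (MKLP2), which carries the chromosomal passenger complex to the central spindle, stood at 111 and 130 CPM in si-ctrl and 78.0 and 92.4 CPM in si-PLANE.1. The groups did not overlap, and the difference was -0.50 ± 0.14 (log2 ± SE, edgeR adjusted p = 0.36). KIF23 (MKLP1), the motor subunit of centralspindlin, stood at 144 and 128 CPM in si-ctrl and 108 and 112 CPM in si-PLANE.1, a difference of -0.31 ± 0.12. KIF14, which works with citron kinase at the midbody, stood at 87.4 and 93.6 CPM in si-ctrl and 64.2 and 79.0 CPM in si-PLANE.1, a difference of -0.34 ± 0.14. In each of these motors of cytokinesis the higher si-PLANE.1 library stayed under the lower si-ctrl library. KIF4A, a chromosome-bound motor that helps to set the length of the central spindle with PRC1, stood at 78.5 and 80.4 CPM against 61.7 and 70.2 CPM, also without overlap (-0.27 ± 0.13, edgeR adjusted p = 0.53).

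KIF11 (Eg5), which slides microtubules apart to make the spindle bipolar, stood at 153 and 135 CPM in si-ctrl and 121 and 109 CPM in si-PLANE.1 (-0.33 ± 0.13). KIF15, which can sustain bipolarity when KIF11 is blocked, stood at 29.2 and 34.5 CPM against 27.6 and 31.1 CPM (-0.12 ± 0.16). KIFC1 (HSET), a minus-end motor that draws poles together, stood at 18.4 and 26.1 CPM against 19.1 and 17.1 CPM (-0.30 ± 0.20). KIF11 was thus separated between the groups, whereas KIF15 and KIFC1 overlapped and the 2 si-ctrl libraries of KIFC1 lay further apart than the groups.

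Of the motors that act on chromosome alignment, KIF2C (MCAK), which depolymerizes microtubules at centromeres, stood at 43.97 and 48.5 CPM in si-ctrl and 32.7 and 38.8 CPM in si-PLANE.1 (-0.37 ± 0.15). KIF18A, which dampens the growth of kinetochore microtubules, stood at 53.7 and 55.5 CPM against 41.8 and 52.1 CPM (-0.22 ± 0.15). CENPE, the kinetochore motor that carries chromosomes to the equator, stood at 68.2 and 71.4 CPM against 47.7 and 66.0 CPM (-0.30 ± 0.17). All 3 were without overlap, but for KIF18A and CENPE the second si-PLANE.1 library came within a few CPM of si-ctrl. For CENPE the sign depended on the scale. Its FPKM totals were 11.2 and 9.55 in si-ctrl and 10.2 and 13.8 in si-PLANE.1. Of the last value 3.86 FPKM belonged to CENPE-206, a retained-intron transcript of 291 bases that was at 0 in the other 5 libraries.

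Single libraries weighed on the smaller of these differences. Without the first si-PLANE.1 library KIF18A was -0.066 and CENPE -0.081, and without the second they were -0.38 and -0.55. Without the second si-ctrl library KIFC1 was -0.024, and without the first it was -0.52.

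The labels number the libraries of si-ctrl and si-PLANE.1 alike, so the ratio of each numbered pair was also taken, on one CPM scale for all 6 libraries. In replicate 1 the members had a median log2 ratio of -0.38 with 9 of 10 below 0, KIFC1 being at 0.06. In replicate 2 the median was -0.22 with 10 of 10 below 0. Replicate 2 lay above replicate 1 in 8 of 10 members both within si-ctrl (median log2 ratio 0.083) and within si-PLANE.1 (median 0.21). With the library number added to edgeR's fit (the replicate block), KIF20A, KIF14 and KIF11 were called lower (edgeR adjusted p = 0.00085, 0.047 and 0.048). Over all genes that fit called 1225 of 14535. The labels name no shared batch, so this pairing was taken from the library numbers. Over 14440 genes the deviations of same-numbered libraries had a correlation of 0.39, but genes are no independent replicates. Whether these libraries were paired is not stated.

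After si-PLANE.2 the kinesins divided. CENPE, KIF14, KIF18A, KIF15, KIF20A and KIF11 fell, KIF2C rose on the count scale, and KIF23, KIFC1 and KIF4A did not pass the test. The background was broad, with 32.3% of 14168 genes called lower and 31.8% called higher, so the 6 and 1 of 10 members are read against these shares. Lower calls were 50.3% of all calls on the count scale but 62.9% on log2(FPKM + 1) and 71.4% on log2(TPM + 1). The median of the members was -0.78 beside -0.03 over all genes.

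CENPE fell the most, from 62.4 and 65.2 CPM in si-ctrl to 18.2 and 18.4 CPM in si-PLANE.2, a log2 fold change of -1.80 ± 0.10 or 3.49-fold lower (edgeR adjusted p = 1.3e-05). KIF14 fell from 79.9 and 85.6 CPM to 29.6 and 30.3 CPM (-1.47 ± 0.10, 2.76-fold lower, edgeR adjusted p = 2.3e-05). KIF18A fell from 49.1 and 50.8 CPM to 19.8 and 19.8 CPM (-1.34 ± 0.10, 2.52-fold lower, edgeR adjusted p = 3.8e-05). In these 3, libraries of a group differed by a few CPM while the gap between groups was far wider.

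KIF15 fell from 26.7 and 31.5 CPM to 14.9 and 14.3 CPM (-0.998 ± 0.14, edgeR adjusted p = 0.00057). KIF20A fell from 101 and 119 CPM to 61.5 and 64.9 CPM (-0.80 ± 0.11, edgeR adjusted p = 0.00057). KIF11 fell from 140 and 124 CPM to 79.6 and 75.7 CPM (-0.76 ± 0.10, edgeR adjusted p = 0.00048). Each of these 6 members was called lower under every scaling, filter, test and left-out library that was tried.

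KIF2C stood at 40.2 and 44.4 CPM in si-ctrl and 52.7 and 52.1 CPM in si-PLANE.2 (0.31 ± 0.10, edgeR adjusted p = 0.031), yet its FPKM totals were 21.9 and 21.6 against 20.04 and 18.8. On log2(FPKM + 1) the difference was -0.16, so the direction of KIF2C was not settled by these data. KIFC1 stood at 16.8 and 23.9 CPM against 24.1 and 23.9 CPM (0.24 ± 0.18, edgeR adjusted p = 0.27), and its log2(FPKM + 1) difference was -0.44, while on log2(TPM + 1) it was called lower (-0.60, limma adjusted p = 0.021). KIF23 stood at 131 and 117 CPM against 117 and 108 CPM (-0.15 ± 0.10), and KIF4A at 71.7 and 73.5 CPM against 72.6 and 67.5 CPM (-0.05 ± 0.10). Without the second si-ctrl library KIFC1 was called higher (0.51, edgeR adjusted p = 0.0014) and KIF23 lower (-0.22, edgeR adjusted p = 0.037), while KIF2C was not called without the first si-ctrl library or without either si-PLANE.2 library (edgeR adjusted p = 0.079, 0.17 and 0.15).

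**Figure D2:**
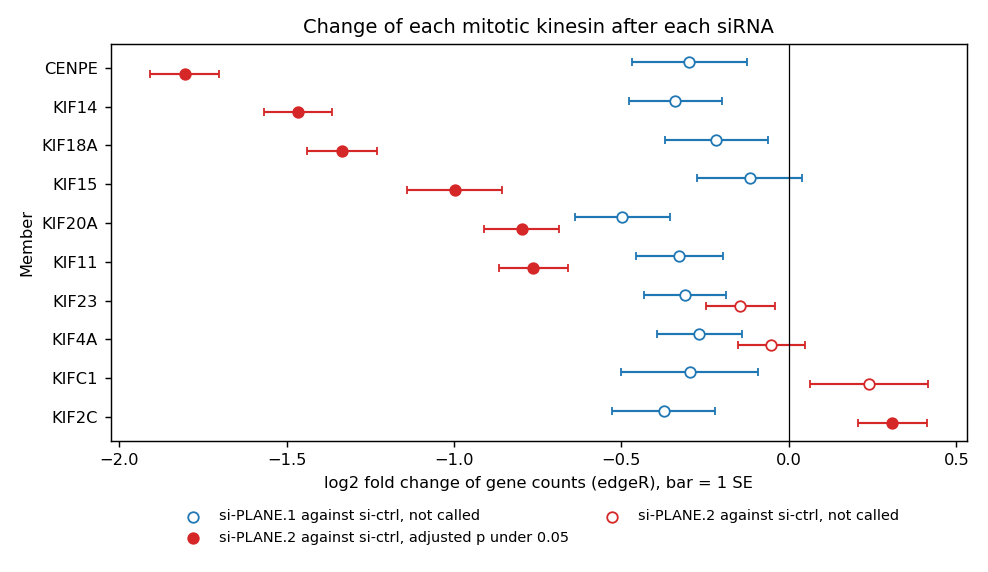
Log2 fold change of each member against si-ctrl from edgeR, with bars of 1 SE, in blue for the first siRNA and in red for the second. Filled points passed an adjusted p of 0.05 and open points did not. The blue points lie between -0.50 and -0.12, whereas the red points run from -1.80 for CENPE to 0.31 for KIF2C. Both comparisons use the same si-ctrl libraries.

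Whether the knockdown groups differed from each other was tested directly, in a fit of all 6 libraries. In this contrast 5 members were lower with si-PLANE.2 (33.4% of 14440 genes) and 2 were higher (31.1%). Lower calls were 51.8% of all calls here, against 67.2% on log2(FPKM + 1). The lower members were CENPE (log2 difference -1.50 ± 0.16), KIF14 (-1.12 ± 0.12), KIF18A (-1.11 ± 0.14), KIF15 (-0.88 ± 0.15) and KIF11 (-0.43 ± 0.11), with edgeR adjusted p between 5.7e-05 and 0.0084. KIF2C (0.69 ± 0.12, edgeR adjusted p = 0.0012) and KIFC1 (0.54 ± 0.18, edgeR adjusted p = 0.027) were higher in si-PLANE.2, KIFC1 with the opposite sign on log2(FPKM + 1), at -0.15. KIF20A, the member with the lowest value after si-PLANE.1, differed by -0.30 ± 0.12 (edgeR adjusted p = 0.064), KIF23 by 0.17 ± 0.11 and KIF4A by 0.22 ± 0.11, none of which was called, and the last 2 turned to -0.21 each on log2(TPM + 1). The KIFC1 call was lost without the second si-PLANE.1 library or either si-PLANE.2 library (log2 difference 0.46 to 0.55), and the KIF11 call without the second si-PLANE.2 library (-0.39, edgeR adjusted p = 0.077). KIF20A was called lower without the first si-ctrl or the first si-PLANE.1 library, at -0.30 and -0.42.

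The size of the si-PLANE.2 changes went with the base composition and the length of the mRNA, properties that the choice of members did not use. The most abundant transcripts of CENPE, KIF18A and KIF14 hold 35.4%, 36.0% and 38.3% G and C, and lie among the 10% of genes lowest in GC content. Over those 1310 genes the median log2 fold change after si-PLANE.2 was -0.57 and 56.3% were called lower, whereas among the 10% highest in GC content the median was 0.68 and 9.47% were called lower. CENPE (8241 bases) and KIF14 (7274 bases) were also among the longest 10% of genes, where the median was -0.75 and 70.0% were called lower. KIFC1, with 57.5% G and C, and KIF2C, with 50.03% and 2879 bases, lay at the other end among the members.

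Across the 10 members Spearman's rho between the si-PLANE.2 change and GC content was 0.88, and between the change and length -0.77. Over all genes these were 0.35 and -0.18. After si-PLANE.1 the values were -0.26 and 0.16 for the members and -0.05 and 0.04 for all genes. The points share libraries and are not independent, so these are descriptions only. The part of base composition and length in the members' changes was not tested.

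**Figure D3:**
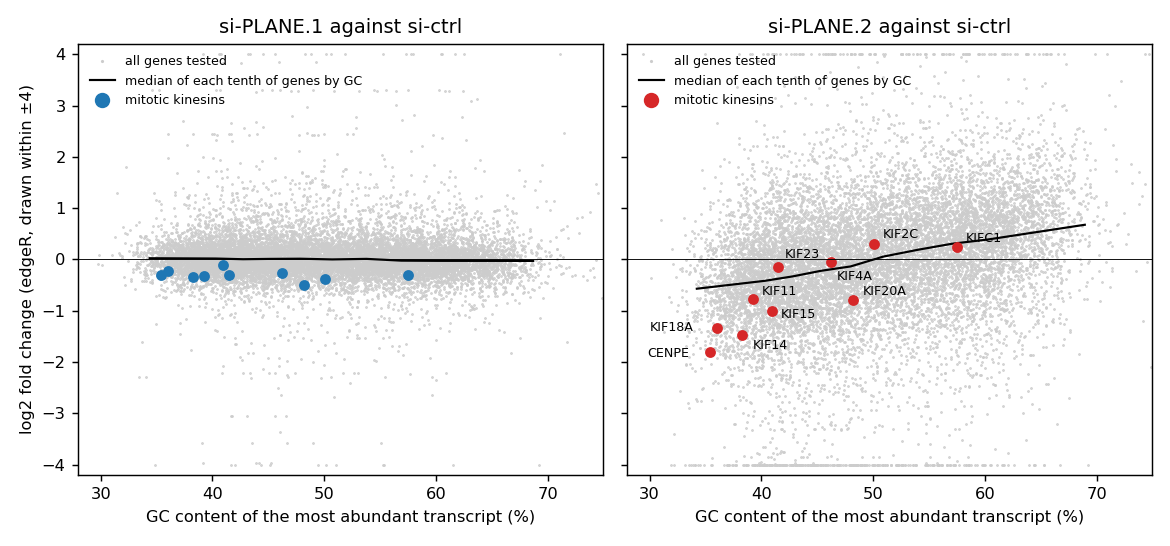
Log2 fold change against the GC content of the most abundant transcript, for all genes tested (grey), the median of each 10% of genes in order of GC content (black line) and the mitotic kinesins (coloured). After si-PLANE.2, in the right panel, the line climbs from -0.57 to 0.68 and the kinesins tend to climb with it from CENPE to KIFC1. KIF20A (48.2% G and C, at -0.80) lies well below KIF4A (46.2%, at -0.05), and KIF2C is the highest. After si-PLANE.1, in the left panel, the line stays near 0 and all 10 kinesins lie below it.

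The tables list 58 transcripts of the members, comprising 27 protein-coding, 15 retained-intron, 6 nonsense-mediated decay and 5 with no defined coding sequence, while 5 were not in the annotation used. After si-PLANE.1, 32 of them were tested and edgeR's test called 0, as it did among all 57625 transcripts tested, while 2 of the members' transcripts and 2552 of all transcripts had an unadjusted p under 0.05. After si-PLANE.2, 29 were tested, 9 were called lower (12.7% of 56791 transcripts) and 1 was called higher (12.9%). DESeq2 called 16 of the 29, but its share over all transcripts is not given here, so that count cannot be read as an excess.

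The lower 9 included the most abundant transcripts of KIF11, KIF20A, KIF14, KIF18A and CENPE. KIF14-201, the only KIF14 transcript in the tables, stood at 11.9 and 12.3 FPKM in control cells, 9.33 and 10.98 after si-PLANE.1 and 3.81 and 3.92 after si-PLANE.2. Of 7 listed CENPE transcripts, the 2 called lower were CENPE-202 (4.25 and 3.53 FPKM in control cells, 1.01 and 1.43 after si-PLANE.2) and CENPE-201 (2.64 and 4.14 FPKM against 0.94 and 0.60 FPKM). These 2 held 38.1% and 23.7% of CENPE in the first si-ctrl library. The short coding CENPE-205, which was too low to be tested, held 1.39 FPKM or 41.6% of CENPE in the first si-PLANE.2 library and was at 0 in the other 5. Its 1.39 FPKM came from an expected count of 10.04, out of 342 for CENPE in that library.

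KIF15 changed in make-up. The shorter coding transcript KIF15-206 stood at 3.14 and 5.31 FPKM in control cells and 3.55 and 3.12 after si-PLANE.1 and was at 0 in both si-PLANE.2 libraries, at least 54.4-fold lower against a floor of 3 counts per library. The full-length KIF15-201 stood at 4.58 and 4.65 FPKM in control cells and 2.78 and 2.81 after si-PLANE.2, a log2 fold change of -0.45 ± 0.18 that was not called in the fit of all transcripts (edgeR adjusted p = 0.14). In the fit of 1 most abundant transcript per gene, KIF15-201 was called lower (-0.62, edgeR adjusted p = 0.029).

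KIFC1 held a like pair. Its short coding transcript KIFC1-212 stood at 5.20 and 5.87 FPKM in control cells, 3.83 and 2.36 after si-PLANE.1, and 0 and 0.06 after si-PLANE.2, where it was called lower. The longer KIFC1-211 stood at 6.06 and 8.59 FPKM in si-ctrl and 8.68 in each si-PLANE.2 library, and was not called (edgeR adjusted p = 0.19).

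In KIF23 the called transcripts were both retained introns. KIF23-204 stood at 2.80 and 1.74 FPKM in control cells and 0.18 and 0.20 after si-PLANE.2, and KIF23-212 was at 0 in both si-ctrl libraries and at 5.36 and 6.07 FPKM in si-PLANE.2, at least 7.93-fold higher against the same floor. The coding KIF23-202 stood at 25.2 and 16.5 FPKM in control cells and 21.6 and 20.1 after si-PLANE.2, with groups that overlapped. In KIF2C, the transcript KIF2C-202 stood at 10.62 and 12.3 FPKM in control cells and 13.6 and 17.3 after si-PLANE.2, whereas the shorter KIF2C-204 stood at 4.82 and 3.21 FPKM against 0 and 0.41 FPKM, neither called. The most abundant transcript of KIF4A, KIF4A-201, stood at 17.9 and 18.1 FPKM in control cells and 15.3 and 14.5 after si-PLANE.2.

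The most abundant transcript carried a median of 66.2% and 59.8% of a member's FPKM in control cells, 71.2% and 72.8% after si-PLANE.1, and 90.5% and 92.8% after si-PLANE.2. The number of the 58 transcripts at 0 was 18 and 20, 22 and 21, and 24 and 25 in the same order. The si-PLANE.2 libraries had the highest total counts and the fewest of these transcripts detected. Neither value is given over all genes, so they cannot be read as particular to the kinesins. Over all genes, protein-coding transcripts held 75.4% and 75.9% of FPKM in si-ctrl and 81.0% and 80.7% in si-PLANE.2. For the members these shares were 84.7% and 83.5%, and 80.6% and 86.8%.

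**Figure D4:**
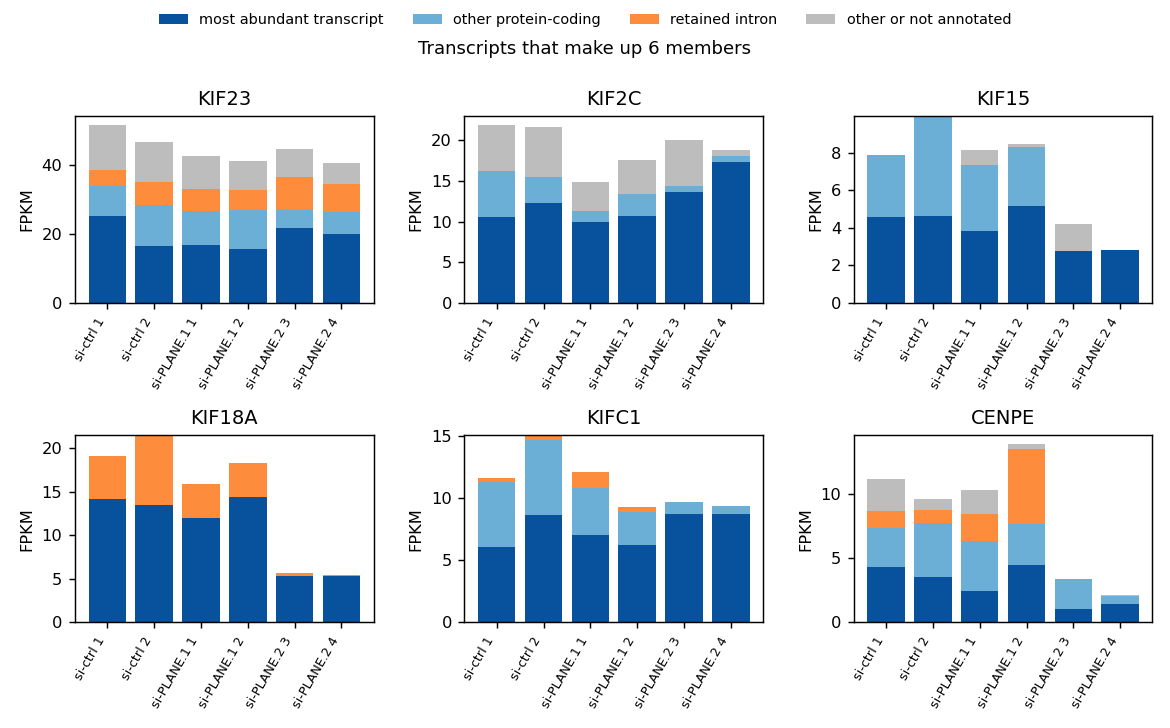
FPKM of 6 members in each library, stacked by transcript class (the most abundant transcript, other protein-coding transcripts, retained introns, and other or unannotated transcripts). In KIF15 and KIFC1 the other protein-coding part shrinks in si-PLANE.2, and in KIF15 the most abundant transcript does too. In KIF18A the most abundant transcript and the retained introns shrink, and in CENPE all classes do. The second si-PLANE.1 library of CENPE holds the retained-intron transcript CENPE-206, which rests on an expected count of 2.

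Other genes of the spindle gave the setting for the members. Of 6 further mitotic kinesins 4 were tested. After si-PLANE.1 all 4 were below 0 with a median of -0.38, and 3 were lower at an unadjusted p under 0.05, against 5.77% of all genes. After adjustment edgeR called 0 without the replicate block and 3 lower with it, where 1225 of all 14535 genes were called. After si-PLANE.2 KIF20B, a motor of late cytokinesis, fell by 1.61 on the log2 scale (SE 0.10). KIF2A, a depolymerizer at spindle poles, fell by 0.83 (SE 0.10) and KIF18B, which acts on astral microtubules, by 0.72 (SE 0.12). KIF22 was not called (0.14, SE 0.11), though its call depended on the libraries kept. In the fit with all libraries none of the 4 was called higher, beside 32.3% of all genes called lower and 31.8% called higher.

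Of 27 kinesins that serve mainly in transport or outside mitosis, 23 were tested after si-PLANE.1 with a median of 0.02. At an unadjusted p under 0.05, 3 were lower, against 5.77% of all genes, and with the replicate block 1 was called lower. After si-PLANE.2, 10 of 21 fell and 6 rose. KIF27 fell by 2.26 (log2, SE 0.21) and KIF1B by 1.08 (SE 0.10), while KIFC3 rose by 1.68 (SE 0.10) and KIF1C by 0.97 (SE 0.10). The shares over all genes were 32.3% lower and 31.8% higher. The sizes depended on the scale, KIF1B being -1.85 and KIFC3 0.95 on log2(FPKM + 1), and KIF1B -0.53 by its most abundant transcript.

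Among 25 partners of the mitotic kinesins, 22 were below 0 after si-PLANE.1, with a median of -0.42. At an unadjusted p under 0.05, 15 were lower, against 5.77% of all genes. After adjustment edgeR called 0 without the replicate block and 15 lower with it, and DESeq2 called 2 lower. Over all 14535 genes the block fit called 1225 and DESeq2 125. TPX2, which targets KIF11 and KIF15 to the spindle, had a log2 fold change of -0.51 ± 0.14, RACGAP1, the partner of KIF23 in centralspindlin, -0.56 ± 0.12, PRC1, the partner of KIF4A, -0.24 ± 0.12, and CIT, the partner of KIF14, -0.32 ± 0.17. After si-PLANE.2, 12 of the 25 fell and 4 rose, beside 32.3% and 31.8% of all genes. The 4 that rose were BIRC5 (log2 1.07, SE 0.12), CDCA8 (0.46, SE 0.11), AURKB (0.42, SE 0.10) and MAPRE1 (0.34, SE 0.11). On log2(FPKM + 1) 16 fell and 1 rose, beside 5105 and 3006 of 14168 genes. CIT fell by 1.77 (log2, SE 0.16) and TPX2 by 1.03 (SE 0.12), as did CENPF, a kinetochore protein, by 1.60 (SE 0.10), HMMR, a spindle protein, by 1.26 (SE 0.11), and ANLN, the cytokinetic scaffold, by 0.97 (SE 0.09). RACGAP1 (0.10 ± 0.09) and PRC1 (0.24 ± 0.09, edgeR adjusted p = 0.0505) were not called, and both had the opposite sign on the FPKM scale. The call of PRC1 depended on the setting. PRC1 was called higher without the first or the second si-ctrl library (0.23 each, edgeR adjusted p = 0.029 and 0.026) and by its most abundant transcript (0.45), and lower on log2(TPM + 1) (-0.41, limma adjusted p = 0.042). HMMR was not called by its most abundant transcript (-0.32, edgeR adjusted p = 0.16), and ANLN was -1.99 on log2(FPKM + 1).

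Tubulins, here the subunits of the track itself and a gamma-tubulin, went the other way after si-PLANE.2. Of 11 tested, 9 rose, the gamma-tubulin among them, and 0 fell, beside 31.8% and 32.3% of all genes. The median log2 fold change was 0.999, and TUBB2A rose by 1.86 ± 0.13 and TUBB6 by 1.84 ± 0.13. After si-PLANE.1 the median was -0.41 and 9 of 11 were below 0, 6 at an unadjusted p under 0.05, against 5.77% of all genes. After adjustment edgeR called 0 without the replicate block and 6 lower with it, and DESeq2 called 2 lower. The rise after si-PLANE.2 was smaller on log2(FPKM + 1), where 7 of 11 were called higher with a median of 0.61, beside 3006 of 14168 genes called higher.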

How the data were processed

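Short-read RNA-seq libraries of A549 cells were analysed from 2 tables of 180253 transcripts. For every transcript the authors deposited expected counts, which are not normalized, and FPKM values, which they scaled to length and depth. The submitters' processing notes name hg19, Trimmomatic 0.30, HISAT2 2.0.1, HTSeq 0.6.1 and DESeq, and the tool behind the expected counts is not given in the sources used here. All values of the si-ctrl libraries were identical in both tables. Columns of the authors' own comparisons were not used.

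Groups were taken from the sample labels. Transcripts were summed by gene identifier, and 16723 transcripts without one, 3.03% to 3.62% of counts, were left out of gene sums. The expected counts, once rounded, were tested in edgeR 4.0.16 (TMM, quasi-likelihood test, R 4.3.3) over all genes with a mean of at least 0.5 FPKM in the libraries of the fit, with Benjamini-Hochberg adjustment. The standard error of a log2 fold change was obtained from the fold change and its F statistic. Each siRNA was fitted with si-ctrl alone, and the difference between siRNAs in all 6 libraries. DESeq2 1.42.0, limma 3.58.1 on log2(FPKM + 1), log2(FPKM + 0.1) and log2(TPM + 1), upper-quartile scaling, a minimum of 2 FPKM, no minimum, a replicate block, the most abundant transcript and left-out libraries were alternatives, and protein-coding transcripts only were added after the data had been seen. The gene-level edgeR and DESeq2 fits of each siRNA against si-ctrl were also run on simulated counts with known changes. The outcome is not given here, and the other fits were not simulated.

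The members and lists were chosen with earlier results of these data known. All 10 members are named, and of each other list the genes called by edgeR (at most 4 with the lowest p per comparison), with TPX2, PRC1, RACGAP1 and CIT in any case. TUBB2A and TUBB6 stand for the tubulins. The 4 partners called higher after si-PLANE.2 and KIF22 were named after their values were seen. Of the transcripts, the most abundant of each member and any called were to be named. The marker genes CDH1, EPCAM and AKR1B10 and the transcripts named beside these (KIF2C-204, CENPE-205 and CENPE-206) were chosen after their values were seen. A planned search for the motor P-loop in the proteins was not done. Gene coordinates came from GENCODE release 44 lifted to hg19, in which 81.11% of shared transcripts had the length given in the tables. With 2 libraries per group the precision is low, and libraries held 10572151 to 20778431 counts.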

Additional observations from a re-analysis of the deposited data

Results flagged for a closer look

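For 7 members the effects of the 2 siRNAs differed by edgeR's test of the difference itself (Benjamini-Hochberg adjusted p under 0.05), 5 lower and 2 higher, against 33.4% and 31.1% of all 14440 genes. The log2 difference, si-PLANE.2 minus si-PLANE.1, was -1.50 for CENPE, -1.12 for KIF14, -1.11 for KIF18A, -0.88 for KIF15, -0.43 for KIF11, 0.69 for KIF2C and 0.54 for KIFC1. The si-PLANE.2 libraries also differed in histone mRNAs without poly(A) tails, as given above, and the part of that difference in these values was not tested. KIFC1 had the opposite sign on log2(FPKM + 1), at -0.15, and KIF2C was not called there, at 0.25.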

How the results depend on the processing

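After si-PLANE.1, 104 of 110 member values under alternatives that kept all libraries had the direction and the side of the threshold reported. CENPE turned to 0.27 on log2(TPM + 1), 0.19 on log2(FPKM + 1) and 0.20 on log2(FPKM + 0.1), with the CENPE-206 value from an expected count of 2 in its total. The count of members called was 5 at an unadjusted p and 3 with the replicate block (KIF20A, KIF11 and KIF14). The labels number si-ctrl and si-PLANE.1 alike but name no shared batch. Deviations of same-numbered libraries had a correlation of 0.39 over 14440 genes, which are no independent replicates. Whether these libraries were paired is not stated. The median of the members was -0.16 on log2(TPM + 1), where the median of all genes was 0.15, and -0.37 to -0.23 with 1 library left out. The count stayed 0 with 1 library left out, and KIF15 ran from -0.23 to 0.0077.

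After si-PLANE.2 the median was -1.07 on log2(TPM + 1), where the median of all genes was -0.37, and -0.94 on log2(FPKM + 0.1), where it was -0.27. With 1 library left out it ran from -0.81 to -0.76 and the count of members called from 6 to 9. On log2(TPM + 1), log2(FPKM + 1) and log2(FPKM + 0.1) KIF2C was -0.31, -0.16 and -0.16, KIFC1 -0.60, -0.44 and -0.48, PRC1 -0.41, -0.25 and -0.25, and RACGAP1 -0.18, -0.024 and -0.025. With protein-coding transcripts only, PRC1 was -0.11 and RACGAP1 -0.019. KIF23 was 0.12 by its most abundant transcript. With 1 library left out KIF4A ran from -0.097 to 0.0081 and KIFC1 from -0.0068 to 0.51. The KIF2C call was lost with DESeq2, a minimum of 2 FPKM, the most abundant transcript and coding transcripts only.

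For the difference between siRNAs the median was -0.87 on log2(TPM + 1), -0.63 on log2(FPKM + 1), -0.66 on log2(FPKM + 0.1) and -0.50 with coding transcripts only, and the count ran from 5 to 8 with 1 library left out. On log2(TPM + 1) KIF23 was -0.21 and KIF4A -0.21, and KIFC1 was -0.37 there, -0.15 on log2(FPKM + 1) and -0.16 on log2(FPKM + 0.1). Transcripts of the members at an unadjusted p numbered 2 of 32 after si-PLANE.1 (2552 of all 57625) and 17 of 29 after si-PLANE.2 (24111 of all 56791). DESeq2 called 16 after si-PLANE.2, for which no share over all transcripts is given. Over all genes, calls after si-PLANE.1 numbered 5 by edgeR, 125 by DESeq2 and 1225 with the replicate block. A group left with 1 library was assumed to vary like the other group. The causes were not tested. With 2 libraries per group, a member transcript under 1 FPKM was rarely tested.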
